A study of Mus musculus with 8 samples.

Results

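Macrophages given lipopolysaccharide (LPS) for 195 min were compared with untreated macrophages, in mature mRNA and in pre-mRNA, over all 11415 genes of the deposited table. The comparison used 4 of the series' 8 libraries, 2 untreated and 2 given LPS at 1 ng/mL, chosen by their labels. The other 4 libraries, which also received IL-10 with LPS, entered only the estimate of the spread. All cells were macrophages grown for 5 days from bone marrow in medium conditioned with M-CSF, from IL10-/-RAG2-/- mice of strain 129S6/SvEvTac, so untreated and LPS-treated cells alike lacked Il10, which limits them as a model of the response in cells that make their own IL-10. Each group came from 2 macrophage pools. Cytokines, chemokines and interferon-stimulated genes, the usual subjects of such a comparison, were set aside by a list of symbols in favour of other genes and families. Predicted genes and NF-κB genes were set aside with them. Some genes named below, Ch25h and Bst2 among them, are nevertheless also known to be interferon-inducible.

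LPS, a glycolipid of the outer membrane of Gram-negative bacteria, is sensed by Toll-like receptor 4 with its partners CD14 and MD-2. The receptor signals through the adaptors MyD88 and TRIF to NF-κB, AP-1 and IRF transcription factors, which in macrophages switch on inflammatory genes within minutes to hours. Over the same hours macrophages also change shape, adhesion, metabolism and their surface receptors, and many genes of the resting state are shut down.

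Depth, summed over the listed genes, was 21412968 to 38369836 reads a library for mRNA and 8661271 to 25801556 for pre-mRNA. Values are normalized reads, that is, reads divided by the library's size factor. The 2 libraries of a group are called A and B, A having the larger size factor, separately for mRNA and pre-mRNA, and the letters pair nothing across groups or measures. A change is the LPS mean minus the untreated mean of log2(normalized reads + 1), given ± its standard error with n = 2 libraries a group, and "rose" or "fell" means an adjusted p under 0.05 (limma-trend, Benjamini-Hochberg over all genes). Each p-value reflects only how far these libraries scatter, and that scatter may be technical. The LPS libraries stood apart from each other: of the fallen mRNAs 71.3% were higher in LPS library A than B, and of the risen mRNAs 28.0%. By pre-mRNA, 72.3% of the risen and 32.3% of the fallen genes were higher in LPS library A. Macrophage markers were all 14 in the table, and their summed mRNA was 573723 to 605475 normalized reads untreated and 910462 to 953926 with LPS. Of other cell types the table listed 8 of 12 neutrophil, 5 of 9 dendritic cell, 2 of 10 T and B cell, 4 of 8 stromal and endothelial, and 2 of 7 mast cell and megakaryocyte markers, with Cd3e, Flt3 and Col1a1 among those not listed. Of the 8 neutrophil markers 6 rose, with a median change of 3.03, S100a9 from 45.6 and 9.93 to 248 and 326 and Camp from 11.9 and 2.48 to 164 and 96.7, while their sum, 2070 to 2657 untreated and 3305 to 5089 with LPS, was mostly Mmp8 (1599 and 2556, then 1423 and 1726) in the untreated libraries. Of the dendritic cell markers 4 of 5 rose, and their sum was 1363 to 2911 untreated and 9528 to 17955 with LPS. Stromal and endothelial markers, 3 of 4 of which rose, summed to 1346 to 2424 and 3743 to 4359, and mast cell and megakaryocyte markers, where Pf4 rose, to 138 to 424 and 1668 to 1735. The 2 T and B cell markers moved apart: Cd28 fell from 3317 and 5487 to 395 and 618, and Lck rose from 6.61 and 6.21 to 36.1 and 118. Every gene of the table had at least 11 mRNA reads in each LPS library, while an untreated library could have 0. A scarce marker was therefore listed only if the LPS libraries held its reads, which favours rises in these marker counts. The part of other cell types in the results was not tested, and in bulk samples fewer cells of a type and less RNA per cell cannot be told apart.

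By mRNA 2193 genes rose and 1887 fell, 35.7% of the 11415 tested (19.2% risen, 16.5% fallen). By pre-mRNA 2484 rose and 2418 fell, 44.0% of 11131 tested (22.3% risen, 21.7% fallen). Without 1 library the mRNA counts ranged from 1155 risen and 705 fallen (without LPS library B) to 1736 and 1359 (without LPS library A), and were 1474 and 969 without untreated library A and 1517 and 1067 without untreated library B. All 4 of these fits called 1049 of the risen and 619 of the fallen mRNAs, and 1371 and 1191 of the pre-mRNAs. The split depended on the scaling: size factors put the median gene at 0.01 by mRNA and 0.00 by pre-mRNA, whereas scaling to total reads put it at -0.74 and -0.91, with 1203 mRNAs risen and 4496 fallen, and 1237 and 4682 pre-mRNAs. Scaling to the upper quartile gave 1706 and 2695 mRNAs, and 1876 and 3128 pre-mRNAs. Every direction below is therefore relative to the median gene, and each list count is followed in brackets by its value under total reads and by its value without any library whose omission moved the number of calls by over 1.5 times. The call of a gene named by the rules given under processing held without each of the 4 libraries in turn unless a library is named beside it. For other genes, such as family members, this is not given gene by gene. For the genes with the largest changes a lack of overlap between the groups was required, and most others were picked by smallest adjusted p. A lack of overlap therefore describes a named gene and is no further support for its change.

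Large changes were mostly rises by mRNA: 584 genes rose and 118 fell at least 8-fold, and 237 rose and 6 fell at least 32-fold. By pre-mRNA the falls were nearer in number, 663 risen and 448 fallen at least 8-fold, and 251 and 57 at least 32-fold. Both measures rose for 1715 genes and both fell for 1412. Every listed gene had at least 11 mRNA reads in each LPS library, whereas 88 and 69 genes had none in the untreated libraries A and B, so genes that LPS silenced below 11 reads are not among these falls.

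Outside the symbols set aside, the largest mRNA rise was that of Ch25h (chromosome 19, 34473783 to 34475148, GRCm38), the enzyme that makes 25-hydroxycholesterol from cholesterol. Its mRNA was 12.6 and 3.72 normalized reads in the untreated libraries A and B and 26960.1 and 40859.6 in the LPS libraries, a change of 12.02 ± 0.53 (adjusted p = 2.74e-05). Shisa3, an adaptor of Wnt and growth factor receptors, went from 3.97 and 1.24 to 9225 and 5289, a change of 11.03 ± 0.43. Both genes were nearly silent in both untreated libraries and the groups were far apart. Hcar2 (chromosome 5, 123863570 to 123865516), the receptor for nicotinic acid and the ketone body beta-hydroxybutyrate, was 19.2 and 19.9 untreated and 18308 and 18784 with LPS, a change of 9.82 ± 0.16 (adjusted p = 1.23e-06). Its libraries were nearly equal within each group, the smallest standard error among the 12 largest rises. Olr1, a scavenger receptor for oxidized low-density lipoprotein, rose by 9.30 ± 0.75, from 52.9 and 9.93 to 12024 and 19533.

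Several of the largest rises were in genes with no or almost no untreated reads, for which a fold is a lower bound against 3 reads over the group. Plet1, a surface protein best known from epithelial progenitors, had no untreated mRNA read and 999 and 1836 normalized reads with LPS, at least 1046-fold higher. Lad1, a protein of epithelial anchoring filaments, likewise had none and then 1182 and 1038, at least 866-fold higher. Mycl, a member of the Myc family, had 3 untreated and 1724 LPS reads, a 791-fold ratio (95% counting interval from 270 to 3838). Bcl2a1a, an anti-apoptotic BCL2 relative, had none and then 546 and 817, at least 510-fold higher, but reads of its near-identical copies could be counted under it. Cish, a feedback inhibitor of cytokine receptors, rose by 9.58 ± 0.55, and Vcam1, an adhesion molecule for leukocyte integrins, by 9.64 ± 1.29, with LPS libraries of 4247 and 18550.0.

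The largest mRNA falls were smaller than the largest rises. Bmf, a pro-apoptotic BH3-only protein, went from 2471 and 1813 normalized reads to 35.03 and 15.4, a change of -6.44 ± 0.59 (adjusted p = 0.00046). Cnr2, the cannabinoid receptor of leukocytes, went from 3793 and 3164 to 109 and 21.01, a change of -6.14 ± 1.02, and Cxcr4, the receptor for the bone marrow chemokine CXCL12, changed by -6.09 ± 0.84. For these 3 genes LPS library A lay above B but far below both untreated libraries. Zfp395, a zinc finger protein, fell by the same amount in both LPS libraries within their spread, from 2900.0 and 2078 to 60.8 and 50.4 (-5.45 ± 0.30, adjusted p = 7.85e-05). Arrdc3, an arrestin-like adaptor, changed by -4.95 ± 0.47, Gpr146 by -4.75 ± 0.50, Tmem104 by -4.73 ± 0.45, Tmem86a by -5.07 ± 0.90 and Arhgap19 by -4.89 ± 0.82. Fbxo31 (-5.08 ± 1.16) was called with all libraries but not without untreated library A (adjusted p = 0.0653), untreated library B (0.0879) or LPS library B (0.0794). Gpr146 overlaps another gene of the table, 3110082I17Rik, on the other strand.

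**Figure D1:**
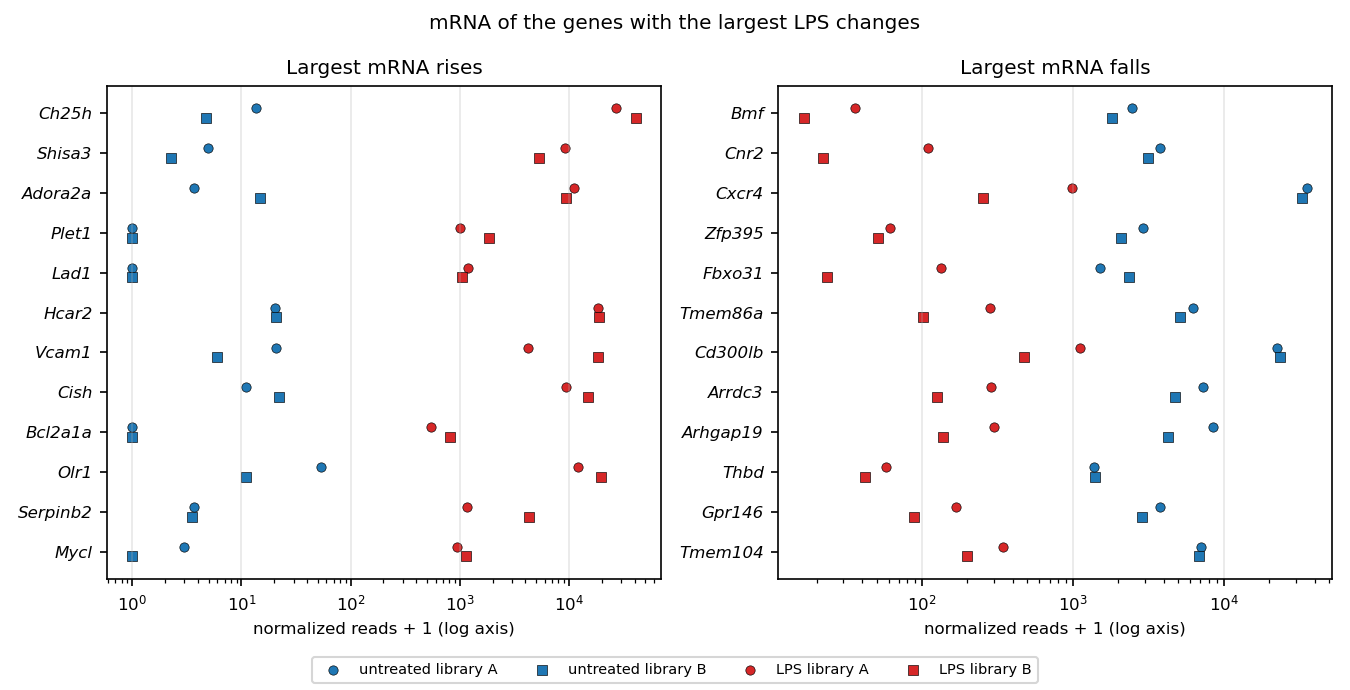
mRNA of the 12 largest rises and 12 largest falls outside the usual lists, in normalized reads + 1 on a log axis, with 1 point for each of the 4 libraries (no error bars). The genes were chosen to have groups that do not overlap, and in the falls LPS library A lies above B for all 12 genes.

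Promoters were examined as a description of the genes, over the 250 bases before each RefSeq start (GRCm38.p6), for 8802 of the table's 11415 genes. On either strand, 4 motifs were searched: TGANTCA (AP-1), GGGA and TTCC with any 2 bases between them (κB), TGACGTCA (CRE) and CACGTG (E-box), none of which holds another. At least 1 AP-1 motif was present in 5.46% of all these genes, in 10.2% of 764 genes whose mRNA rose at least 4-fold, in 8.76% of the 628 of them outside the usual lists and in 5.53% of 398 genes that fell at least 4-fold. The κB motif was in 1.43% of all, in 2.75% of the risen genes, in 1.43% of those outside the usual lists and in 1.51% of the fallen. NF-κB genes belong to the usual lists, so the share outside them is that of a set from which such genes were removed. The CRE was in 3.15%, 3.14%, 3.66% and 2.26% of the same sets, and the E-box in 10.2%, 8.38%, 9.87% and 11.1%. Windows of 4 genes with a large rise and an AP-1 motif are shown 5′ to 3′ on the gene's strand, the motif in capitals: the coagulation starter F3 (chr3:121723287-121723536, plus strand, 2 motifs 4 bases apart), the scavenger receptor Olr1 (chr6:129507166-129507415, minus strand), Plet1 (chr9:50494275-50494524, plus strand) and, for 1 of its start sites, the protease inhibitor Serpinb2 (chr1:107511173-107511422, plus strand). The AP-1 motif was also in windows of named genes that fell by mRNA, among them Arhgap18, Gng2 and St6gal1, which are not shown. A match is not a site of binding.
F3: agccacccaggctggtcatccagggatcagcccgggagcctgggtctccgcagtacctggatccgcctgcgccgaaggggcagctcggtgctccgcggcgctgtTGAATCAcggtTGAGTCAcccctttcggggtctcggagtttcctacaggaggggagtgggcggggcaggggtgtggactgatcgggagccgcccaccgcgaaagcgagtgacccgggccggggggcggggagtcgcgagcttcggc
Olr1: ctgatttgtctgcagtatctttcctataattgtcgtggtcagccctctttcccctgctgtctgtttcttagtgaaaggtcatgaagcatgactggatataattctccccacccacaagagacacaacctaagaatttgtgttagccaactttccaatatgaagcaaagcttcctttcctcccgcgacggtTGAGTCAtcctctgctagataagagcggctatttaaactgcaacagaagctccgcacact
Plet1: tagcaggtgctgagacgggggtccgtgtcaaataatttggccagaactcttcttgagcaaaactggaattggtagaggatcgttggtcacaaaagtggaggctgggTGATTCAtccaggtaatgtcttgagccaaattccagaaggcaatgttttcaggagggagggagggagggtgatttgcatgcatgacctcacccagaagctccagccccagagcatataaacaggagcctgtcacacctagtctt
Serpinb2: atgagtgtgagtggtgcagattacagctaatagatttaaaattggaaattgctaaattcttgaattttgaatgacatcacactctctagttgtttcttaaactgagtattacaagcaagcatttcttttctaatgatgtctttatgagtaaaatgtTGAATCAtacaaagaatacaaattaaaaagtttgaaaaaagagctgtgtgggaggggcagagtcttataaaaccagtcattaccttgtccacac

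Adenosine receptors, which signal through cyclic AMP, were among the clearest rises. Adora2a (chromosome 10, 75316877 to 75334792), the high-affinity stimulatory receptor, was 2.65 and 13.7 normalized reads untreated and 11076 and 9462 with LPS, a change of 10.45 ± 0.57 (adjusted p = 7.62e-05). Adora2b (chromosome 11, 62248984 to 62266452), the low-affinity one, went from 106 and 226 to 6741 and 6746 (5.44 ± 0.34). Pre-mRNA of both rose too, that of Adora2a by 9.31 ± 0.61, and no untreated library came near an LPS library. Pnp, which breaks down inosine and guanosine, rose by 3.47 ± 0.55, though it overlaps its near-identical neighbour Pnp2 on the same strand. Of the 18 purinergic genes tested 5 rose and 3 fell (4 and 8 after scaling to total reads, 3 and 0 without LPS library B or untreated library A, 4 and 0 without untreated library B), and by pre-mRNA 4 rose and 6 fell (4 and 10 after scaling to total reads).

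The enzymes that make, degrade and read cyclic nucleotides mostly moved down among those called. Of 27 tested 4 rose and 7 fell (2 and 13 after scaling to total reads, 2 and 5 without LPS library B). The phosphodiesterase Pde4b, which degrades cyclic AMP, rose, from 1028 and 901 to 19319 and 33178 (4.72 ± 0.41), while Pde3b fell from 3665 and 2329.8 to 423 and 604 (-2.53 ± 0.30), with a pre-mRNA change of -5.62 ± 0.75. Pde4d, a close relative of Pde4b, fell in mRNA from 746 and 781 to 133 and 71.4 (-2.96 ± 0.49), but its pre-mRNA was 4191 and 4339 untreated and 4250.2 and 4687 with LPS (0.07 ± 0.23). So 3 phosphodiesterase genes moved differently, with no overlap of the mRNA groups in any of them. Rapgef2, an exchange factor for the small GTPase Rap1, rose by 4.16 ± 0.44, and Prkar2a, a regulatory subunit of protein kinase A, fell (-1.17 ± 0.17).

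Regulators of G-protein signalling, which switch off receptor-activated G proteins, changed in both directions. Of 25 genes of this list 9 rose and 5 fell (3 and 11 after scaling to total reads, 3 and 2 without LPS library B, 4 and 3 without untreated library B, 6 and 3 without untreated library A). Rgs16 went from 15.2 and 11.2 to 818 and 268 (5.06 ± 0.54), Rgs9 rose by 4.56 ± 0.52 and Rgs1 by 1.54 ± 0.27. Rgs2 fell from 6477 and 5144 to 467 and 536 (-3.53 ± 0.47), and Gng2, a G-protein gamma subunit, changed by -1.44 ± 0.27. For Rgs16 LPS library A lay above B, and both lay far above the untreated libraries.

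Of the genes of the actin cytoskeleton a high share rose. Of 39 tested 20 rose and 4 fell (14 and 7 after scaling to total reads), with a median change of 0.92 beside 0.01 over all genes, and by pre-mRNA 22 rose and 7 fell (13 and 10 after scaling to total reads). Marcksl1 (chromosome 4, 129513581 to 129515981), which binds actin and membrane phosphoinositides, went from 1664 and 1456 to 101345 and 92142 normalized reads (5.96 ± 0.20, adjusted p = 1.67e-05). Fscn1, which bundles actin in filopodia, went from 45.6 and 7.45 to 2317 and 2499 (6.92 ± 0.69). Neither gene's libraries overlapped between groups, and Marcksl1 varied less within a group than Fscn1. Vasp, which elongates filaments, rose by 3.23 ± 0.30, Myo10, the motor of filopodial tips, by 3.28 ± 0.37, and Pstpip2, a membrane-bending adaptor, by 3.24 ± 0.26.

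Small GTPases and the proteins that switch or read them also direct actin, and single genes of this kind moved by large amounts. Cdc42ep2 (chromosome 19, 5917556 to 5924816), an effector of Cdc42, went from 116 and 130.3 to 8199 and 9139.8 (6.12 ± 0.26). Arhgef3, an exchange factor, went from 919 and 769.6 to 17999.9 and 19515 (4.48 ± 0.19, adjusted p = 2.54e-05), and the atypical small GTPase Rhou from 34.4 and 42.2 to 1501 and 1476 (5.25 ± 0.24). In all 3 the LPS libraries differed from each other by far less than from the untreated ones. Rhof, another atypical member, rose by 3.76 ± 0.27, and it overlaps Tmem120b on the other strand. The GTPase activator Arhgap18 fell by mRNA from 3981 and 2489 to 939.7 and 1055 (-1.66 ± 0.32) and by pre-mRNA from 5809.5 and 3885 to 150.4 and 111 (-5.19 ± 0.35).

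**Figure D2:**
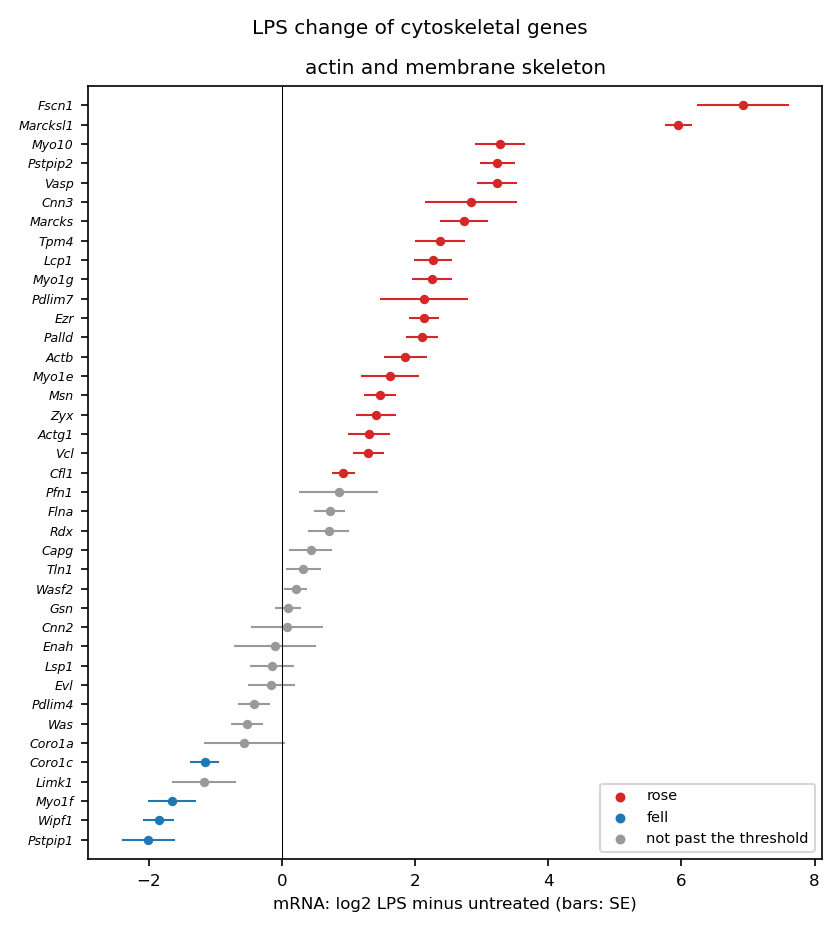
mRNA change (log2 LPS minus untreated, bars ± standard error of the fit, 2 libraries a group) of the 39 actin genes, coloured by call. Of these genes 20 rose and 4 fell, against 14 and 7 after scaling to total reads.

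Receptors of the CD300 family and other paired immunoglobulin-like receptors, in which activating and inhibitory members share ligands, split by gene. Of 25 tested 6 rose and 6 fell (5 and 12 after scaling to total reads). Cd300lb (chromosome 11, 114922779 to 114934371), an activating receptor, went from 22537 and 23676 to 1120.0 and 471 (-4.99 ± 0.51). Its neighbour Cd300ld (chromosome 11, 114982443 to 114989886) went from 5294 and 5758 to 1944 and 1862 by mRNA (-1.54 ± 0.16) and from 227 and 299 to 3.53 and 5.40 by pre-mRNA (-5.60 ± 0.76). Both genes were lower in both LPS libraries than in either untreated library. Cd200r1, the inhibitory receptor for CD200, fell from 1588 and 1486 to 256 and 301 (-2.46 ± 0.21), whereas its ligand Cd200 had no untreated mRNA read and 225 and 247 normalized reads with LPS, at least 181-fold higher.

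C-type lectins and Siglecs, receptors for glycans, rose more often than they fell, 8 against 1 (5 and 5 after scaling to total reads, 4 and 1 without LPS library B, 3 and 1 without untreated library B) of 23 tested. By pre-mRNA 8 rose and 6 fell (6 and 9 after scaling to total reads). Clec4e, or Mincle, the receptor for mycobacterial glycolipids, went from 2222 and 2065 to 131179 and 175927 (6.15 ± 0.37), and Clec5a and Clec2d rose by 3.85 ± 0.50 and 2.93 ± 0.40. Clec2i fell (-2.22 ± 0.39), and it overlaps another gene on the other strand. Lgals3, the galectin that macrophages make in quantity, had mRNA of 71746 and 76908 untreated and 48436 and 73777 with LPS (-0.31 ± 0.33, adjusted p = 0.496), groups that overlapped, while its pre-mRNA fell from 14200.5 and 25675 to 2829.5 and 2169 (-2.95 ± 0.31).

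Among other membrane proteins, Timd4, a receptor for phosphatidylserine on dying cells, rose from 23.2 and 3.72 to 1862 and 2419 (7.64 ± 0.71). Ehd1, which recycles receptors from endosomes, went from 3188 and 5757 to 123283 and 117546 (4.81 ± 0.30). The Ehd1 libraries with LPS were close to each other and far above both untreated libraries. Of 34 endocytosis and phagocytosis genes 8 rose and 5 fell (6 and 14 after scaling to total reads). Of 24 Ms4a, tetraspanin and Ly6 genes 8 rose and 4 fell (8 and 9 after scaling to total reads), the tetraspanins Cd82 (1.76 ± 0.20) and Tspan33 (2.75 ± 0.37) among the risen and Tspan14 (-2.20 ± 0.23) among the fallen.

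Ion channels moved in both directions, 12 against 7 (9 and 16 after scaling to total reads) of 38 tested by mRNA. Kcna3, the voltage-gated potassium channel Kv1.3, went from 468 and 331 to 8524 and 8301 (4.41 ± 0.31), and Orai2, a subunit of the store-operated calcium channel, from 1343 and 1049 to 11603 and 12032 (3.31 ± 0.19). Neither showed any overlap. Clcn7, the chloride-proton exchanger of lysosomes, rose by 1.98 ± 0.25, and Lrrc8c, a subunit of the volume-regulated anion channel, by 1.82 ± 0.18. Tpcn2, a cation channel of endolysosomes, fell (-2.14 ± 0.21).

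Of the protease inhibitors and coagulation genes a high share rose too. Of 24 serpins, cystatins, coagulation factors and related genes 12 rose and 1 fell (10 and 7 after scaling to total reads), with a median change of 1.49 beside 0.01 over all genes, and by pre-mRNA 10 rose and 4 fell (8 and 6 after scaling to total reads, 8 and 1 without LPS library B). F3, tissue factor, which starts coagulation, went from 3.97 and 4.96 to 567 and 933 (7.06 ± 0.50), while Thbd, thrombomodulin, which turns thrombin to anticoagulant use, went from 1369 and 1408 to 56.7 and 40.6 (-4.83 ± 0.41). Serpinb2, an inhibitor of plasminogen activators, went from 2.65 and 2.48 to 1155 and 4296 (9.29 ± 0.84). Thbd was the 1 gene of the list whose mRNA fell.

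Secreted and membrane proteases and their regulators also rose more often than they fell, 7 against 1 (6 and 7 after scaling to total reads) of 24 by mRNA. By pre-mRNA 10 rose and 5 fell (5 and 8 after scaling to total reads). Rhbdf2, or iRhom2, which escorts the TNF-releasing protease ADAM17, went from 2191 and 2764 to 20424 and 23228 (3.15 ± 0.20). The lysosomal protease Ctsc and the carboxypeptidase Cpd rose by 2.39 ± 0.22 and 2.90 ± 0.28. The groups of these 3 genes did not overlap.

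Secreted growth and vasoactive factors and guidance cues included some of the larger rises. Edn1, endothelin-1, a vasoconstrictor, went from 2.65 and 7.45 to 1915 and 4729 (9.08 ± 0.66), and Adm, adrenomedullin, a vasodilator, from 5.29 and 3.72 to 251 and 178 (5.28 ± 0.37). Areg, an EGF-receptor ligand, had no untreated read and 135 and 29.4 normalized reads with LPS, at least 69.7-fold higher, and LPS library A was the higher. Inhba, a subunit of activin A, rose by 4.24 ± 0.57, and Hgf, hepatocyte growth factor, fell (-2.45 ± 0.48). Of 19 growth factors 7 rose and 2 fell (6 and 5 after scaling to total reads, 4 and 1 without untreated library B), and of 23 semaphorins, plexins, ephrins and their kin 9 rose and 4 fell (6 and 10 after scaling to total reads, 7 and 1 without untreated library A). Epha4, an ephrin receptor, rose by 5.81 ± 0.80, Flrt3 by 4.97 ± 0.51, and Nrp2, a co-receptor for semaphorins, from 17646 and 18823 to 93309.9 and 116061 (2.51 ± 0.24). Plxnc1, a semaphorin receptor, was called as fallen by mRNA (-0.85 ± 0.24), but in no fit without 1 of the 4 libraries (adjusted p from 0.0524 without untreated library A to 0.142 without LPS library A), whereas its pre-mRNA change of -3.32 ± 0.25 held in all of them.

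Lipid enzymes changed in both directions, the sphingolipid and phospholipid genes in shares near those of all genes. Of 39 sphingolipid and phospholipid genes 6 rose and 8 fell (2 and 18 after scaling to total reads, 2 and 4 without LPS library B, 4 and 4 without untreated library B, 2 and 6 without untreated library A), and of 29 triglyceride, lipid droplet and fatty acid oxidation genes 4 rose and 6 fell (4 and 15 after scaling to total reads, 2 and 2 without LPS library B, 3 and 3 without untreated library B). Cers6, a ceramide synthase, was among the risen, from 2418 and 3952 to 45499 and 62914 (4.11 ± 0.33), with pre-mRNA of 7331 and 4188 and then 436920.0 and 168567. Sgms1, which makes sphingomyelin, rose by 2.56 ± 0.22. Acsl1 and Acsl5, which activate long-chain fatty acids, rose by 3.45 ± 0.30 and 1.74 ± 0.20, whereas Acsl3, another isoform, fell from 818 and 747 to 185 and 146 (-2.24 ± 0.24). Acsl3 overlaps Utp14b on the same strand, and Acsl5 overlaps Zdhhc6 on the other. Pla2g15, the lysosomal phospholipase, fell from 5187 and 6241 to 951 and 1123 (-2.46 ± 0.20), and Acox3, of peroxisomal oxidation, changed by -1.21 ± 0.18.

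Antioxidant genes rose more often than they fell by mRNA, 11 against 2 (6 and 9 after scaling to total reads, 7 and 0 without LPS library B, 6 and 0 without untreated library A) of 39, and in nearer numbers by pre-mRNA, 11 against 9 (8 and 11 after scaling to total reads). Slc7a11 (chromosome 3, 50364936 to 50499087), which imports cystine for glutathione, went from 862 and 1303 to 84149.8 and 79303 (6.27 ± 0.25, adjusted p = 2.49e-05), and by pre-mRNA by 8.16 ± 0.43. Sod2, the mitochondrial superoxide dismutase, went from 1913 and 1871 to 54211 and 54996 (4.85 ± 0.20). In both, each group's libraries were close and the groups far apart. Txnrd1, thioredoxin reductase, rose by 2.94 ± 0.29, and Cybb, the catalytic subunit of the phagocyte oxidase, by 2.01 ± 0.36.

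Chaperone and stress genes changed in both directions. The inducible heat shock gene Hspa1b went from 19.8 and 33.5 to 2860.4 and 2023 (6.49 ± 0.36) and its near-identical copy Hspa1a from 27.1 and 60.8 to 921 and 573 (4.12 ± 0.48), though reads of the pair could be split by the counting. Ern1, or IRE1, the sensor of unfolded proteins, fell (-1.42 ± 0.21), while Herpud1, a target of that response, rose (1.38 ± 0.21). Of 35 genes of the list 10 rose and 3 fell (4 and 8 after scaling to total reads, 5 and 1 without LPS library B, 5 and 2 without untreated library A). Of 32 ATF4 targets and aminoacyl-tRNA synthetases 10 rose and 1 fell (3 and 5 after scaling to total reads, 2 and 0 without LPS library B, 2 and 1 without untreated library A), and by pre-mRNA 14 rose and 1 fell (7 and 4 after scaling to total reads). Chac1, a glutathione-degrading ATF4 target, rose from 87.98 and 71.99 to 881 and 706 (3.29 ± 0.29), and Atf4 itself by 1.18 ± 0.18.

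Ribosome biogenesis genes held no fall: of 38 tested 12 rose and 0 fell (4 and 5 after scaling to total reads, 7 and 0 without LPS library B), and by pre-mRNA 9 rose and 0 fell (2 and 4 after scaling to total reads). The absence of falls did not hold without LPS library A by mRNA, or without LPS library B by pre-mRNA. Ddx21, a nucleolar helicase, went from 1602 and 1908 to 6490.4 and 6689 (1.91 ± 0.18), Nop58, a core protein of small nucleolar particles, from 374 and 385 to 1589 and 1335 (1.94 ± 0.18), and Wdr43 rose by 2.00 ± 0.22. Of 39 autophagy genes 7 rose and 13 fell (3 and 22 after scaling to total reads, fewer of both without LPS library B or either untreated library). Without LPS library B or untreated library A the falls no longer outnumbered the rises. Nbr1, a cargo receptor, fell from 6309 and 5007 to 1574 and 938 (-2.21 ± 0.34) and the initiating kinase Ulk2 changed by -1.27 ± 0.20. The cargo receptors Sqstm1 and Optn rose, by 2.34 ± 0.36 and 1.04 ± 0.17. Mitf, a lysosomal regulator, rose from 3569 and 3122 to 19741 and 29429.5 (2.85 ± 0.32), while its relative Tfeb was lower (-2.34 ± 0.75), a call lost without untreated library A (adjusted p = 0.117), untreated library B (0.198) or LPS library B (0.228).

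Nuclear receptors fell more often than they rose. Of 25 tested 1 rose and 8 fell (0 and 12 after scaling to total reads, 0 and 3 without LPS library B, 1 and 4 without untreated library B, 0 and 5 without untreated library A), and by pre-mRNA 3 rose and 6 fell (1 and 14 after scaling to total reads). Pparg, the lipid-sensing receptor of macrophages, went from 678 and 1076 to 137 and 140.1 by mRNA (-2.62 ± 0.31) and from 2754 and 2686 to 133 and 132 by pre-mRNA (-4.35 ± 0.27). Its partner Rxra went from 6303 and 3997 to 929 and 616 (-2.73 ± 0.33). Neither measure's groups overlapped in either gene. Of 18 circadian clock genes 3 rose and 5 fell (1 and 7 after scaling to total reads, 2 and 2 without LPS library B or untreated library A, 1 and 4 without untreated library B), Dbp (-2.01 ± 0.37) and Rora (-1.44 ± 0.27) among the fallen. Dbp overlaps Sphk2 on the other strand.

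Chromatin enzymes changed gene by gene. Tet2, which oxidizes methylated cytosine, went from 3995 and 3048 to 20325 and 27516 (2.76 ± 0.26), and Ell2, a transcription elongation factor, from 1635 and 984 to 18983 and 24066 (4.07 ± 0.38). Kdm6b, which removes a repressive methyl mark of histone H3, rose by 3.24 ± 0.38 and Kdm4a by 1.51 ± 0.22. Setd7, a lysine methyltransferase, fell from 6029 and 6195 to 1203 and 839 (-2.60 ± 0.28), as did Setdb1 (-1.26 ± 0.20) and Ezh1 (-1.07 ± 0.18). None of these groups overlapped. Of 33 histone demethylases and methyltransferases 7 rose and 5 fell (4 and 15 after scaling to total reads, 3 and 3 without LPS library B, 4 and 3 without untreated library B or untreated library A), and of 22 TET, DNMT and reader genes 5 rose and 4 fell (2 and 7 after scaling to total reads, 4 and 0 without LPS library B, 4 and 1 without untreated library B or untreated library A).

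Developmental pathways had called genes in both directions. Of 31 TGF-beta and BMP genes 8 rose and 3 fell (4 and 10 after scaling to total reads, 4 and 1 without LPS library B, 5 and 1 without untreated library B or untreated library A), and of 21 Wnt and Hippo genes 5 rose and 2 fell (4 and 8 after scaling to total reads, 3 and 0 without LPS library B). Smurf1, a ubiquitin ligase of the TGF-beta pathway, went from 2089.6 and 1910.2 to 5598 and 5666 (1.49 ± 0.17), and Fst, follistatin, which binds activins, had 3 untreated reads and a 31.2-fold ratio (counting interval from 10.2 to 155). Fzd1, a Wnt receptor, went from 158 and 138 to 3482 and 3544 (4.56 ± 0.24), and Lats1, a kinase of the Hippo pathway, from 3426 and 2674 to 7112 and 9801 (1.46 ± 0.28), a call lost without LPS library B (adjusted p = 0.0568) or untreated library B (0.0508). Of these the libraries of each group lay apart from those of the other. Of 38 polyamine, one-carbon and nucleotide genes 6 rose and 3 fell (3 and 10 after scaling to total reads, 3 and 0 without LPS library B, 4 and 1 without untreated library A). By pre-mRNA the balance was the other way, 7 risen and 10 fallen (4 and 16 after scaling to total reads, fewer of both without untreated library A). Upp1, which splits uridine, rose by 5.84 ± 0.70. Of 12 NADPH and myeloid oxidase genes 3 rose and 0 fell (2 and 3 after scaling to total reads).

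Of the TRAF and ubiquitin genes of innate signalling a high share rose. Of 46 TRAF proteins and ubiquitin enzymes 21 rose and 5 fell (16 and 13 after scaling to total reads), and by pre-mRNA 20 rose and 3 fell (17 and 15 after scaling to total reads). Traf1, an adaptor of TNF receptors, went from 278 and 530.0 to 19072 and 22251 (5.74 ± 0.34), Peli1, a ubiquitin ligase of Toll-like receptor signalling, rose by 4.37 ± 0.40, and Rnf144b, a ligase, fell from 5161 and 4972 to 335 and 238 (-4.16 ± 0.34). Of 46 MAP kinase genes 11 rose and 7 fell (9 and 12 after scaling to total reads, 6 and 2 without LPS library B, 9 and 2 without untreated library B, 8 and 3 without untreated library A), with Mapkapk2, the kinase downstream of p38, risen by 3.19 ± 0.28 and Map3k1 fallen (-1.29 ± 0.16). Of 49 phosphoinositide genes 13 rose and 12 fell (5 and 20 after scaling to total reads, 7 and 5 without LPS library B, 11 and 5 without untreated library B, 8 and 7 without untreated library A). Pik3r5, a regulatory subunit of PI3-kinase gamma, rose from 10987 and 12837 to 62632 and 59945 (2.37 ± 0.21), Pik3ap1, or BCAP, rose by 2.00 ± 0.27, and Inpp5d, or SHIP1, the phosphatase that opposes them, fell from 15910.1 and 13013 to 3217 and 1685 (-2.63 ± 0.48).

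Growth arrest genes rose more often than they fell by mRNA, 13 against 5 (8 and 11 after scaling to total reads, 8 and 3 without untreated library A) of 32. By pre-mRNA 10 rose and 6 fell (4 and 11 after scaling to total reads, fewer of both without either untreated library). Cdkn1a, or p21, the inhibitor of cyclin-dependent kinases, went from 3187 and 5517 to 141183 and 198579 (5.32 ± 0.43), and Gadd45b rose by 5.16 ± 0.39. Trp53inp1, another p53 target, fell from 3869.7 and 2024 to 367 and 213 (-3.32 ± 0.42). Of 46 genes for RNA-binding and decay proteins 8 rose and 5 fell (3 and 16 after scaling to total reads, 1 and 1 without LPS library B, 2 and 4 without untreated library B, 6 and 1 without untreated library A), and Ago4 and Ago3, 2 Argonaute genes, moved in opposite directions (-2.64 ± 0.25 and 2.50 ± 0.38).

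Several of these lists were called in shares near those of all genes (19.2% risen and 16.5% fallen by mRNA), within 5 percentage points in both directions, so their counts show nothing about the lists. These were the histone demethylases and methyltransferases (21.2% and 15.2%), the TET, DNMT and reader genes (22.7% and 18.2%), the MAP kinase genes (23.9% and 15.2%), the sphingolipid and phospholipid genes (15.4% and 20.5%) and the endocytosis and phagocytosis genes (23.5% and 14.7%). The triglyceride and fatty acid genes lay just beyond, at 13.8% and 20.7%. The pre-mRNA counts of the lists are to be read beside 22.3% risen and 21.7% fallen over all genes, 44.0% called. Of the ribosome biogenesis genes 23.7% were called by pre-mRNA, all as risen, which is near the share of all genes that rose. Of the nuclear receptors 36% were called by pre-mRNA, a lower share than that of all genes.

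**Figure D3:**
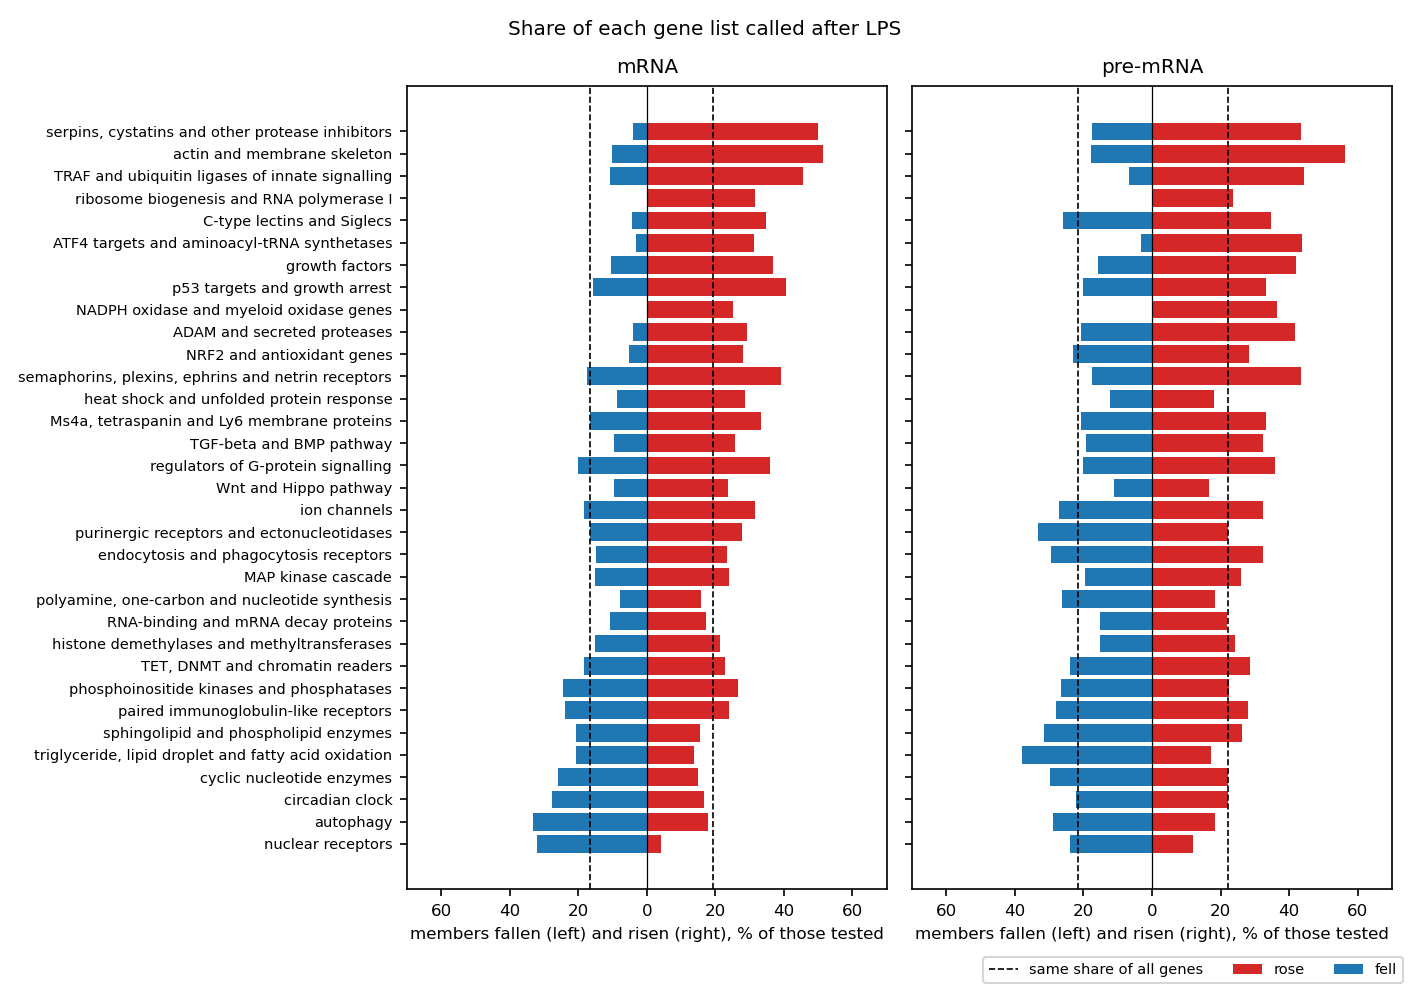
Share of the tested members of the gene lists that rose (right) or fell (left) with LPS, in percent, by mRNA and by pre-mRNA, with dashed lines at the shares of all genes (19.2% and 16.5% by mRNA, 22.3% and 21.7% by pre-mRNA). By mRNA 20 of 39 actin genes and 12 of 24 protease inhibitor genes rose (14 and 10 under total reads), and under total reads falls outnumber rises in most of the lists.

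Families were also formed from symbols with the same letters before the first digit, which gave 200 families of at least 8 tested genes. After the guanylate-binding, chemokine and interferon families, the Psmb family of proteasome subunits had the highest share risen by mRNA, 8 of 10 (3 after scaling to total reads, and without 1 library 2 to 5, fewest without LPS library B), and 7 of 10 by pre-mRNA (3 after scaling to total reads, 4 without either untreated library). The Psmb genes risen by mRNA included Psmb8, Psmb9 and Psmb10, but not all of these were called without LPS library B. Over all genes 19.2% rose and 16.5% fell by mRNA. The highest shares fallen by mRNA were in Zfyve, proteins with a lipid-binding FYVE finger (5 of 8, median -0.95), Ift, the transport machinery of cilia (7 of 14, median -0.72), Zscan zinc finger proteins (4 of 8, median -1.01), Dcaf, substrate receptors of CUL4 ligases (5 of 11, median -0.69), and, at the same share, Inpp and Samd (4 of 9 each). By pre-mRNA 7 of 14 Ift genes fell, with a median change of -1.97, and 3 of 8 Zfyve genes (1 without untreated library B). Scaling to total reads raised the fallen mRNAs to 7 in Zfyve, 10 in Ift, 8 in Zscan and 8 in Dcaf. Without LPS library B only 1 Zfyve, 0 Ift, 1 Zscan and 3 Dcaf genes fell, and without LPS library A 2, 5, 2 and 3. Without untreated library A the same families had 2, 2, 1 and 2 falls, and without untreated library B 1, 1, 4 and 3. Of the Inpp genes 2 fell in each of these fits, and of the Samd genes 3 without LPS library A and 2 in the others. These families were ranked by these data, so the shares are a description.

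The change of pre-mRNA differed from that of mRNA for 138 of 11131 genes (1.24%), in a fit that took both measures as separate samples though 1 RNA gave both, the pre-mRNA change being higher in 18 (0.162%) and lower in 120 (1.08%). Without 1 library this count ran from 44 (without LPS library B of the mRNA) to 239 (without LPS library B of the pre-mRNA), and it was 73 and 68 without untreated libraries A and B of the mRNA, 54 without LPS library A of the mRNA, 54 without either untreated library of the pre-mRNA, and 86 without LPS library A of the pre-mRNA. Genes at 0 pre-mRNA reads were mostly genes without introns: 96.2% of 211 single-exon gene models (GENCODE M21) had no pre-mRNA read in any of the 8 libraries, against 0.369% of 10827 gene models with introns. Ch25h, Hcar2, Thbd and Kcna3 were at 0 for that measure and have no such comparison. The 2 genes that rose by mRNA and fell by pre-mRNA were Tsc22d1 and Tmem206, named here after their values were seen.

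The pre-mRNA fell much further than the mRNA for several abundant macrophage transcripts. St6gal1, a sialyltransferase, went from 5009 and 4752 to 70.5 and 63.4 by pre-mRNA (-6.17 ± 0.26) and from 7214 and 7086 to 1979 and 2093 by mRNA (-1.81 ± 0.17), a difference of -4.36 ± 0.28 (adjusted p = 4.91e-05). Trem2, a lipid-sensing receptor, went from 6343 and 6665 to 61.1 and 162 by pre-mRNA (-6.01 ± 0.49), while its mRNA was 13494 and 16902 untreated and 11923 and 11249 with LPS (-0.38 ± 0.21, adjusted p = 0.195), a difference of -5.63 ± 0.58. Gm2a, a cofactor of ganglioside breakdown, had overlapping mRNA groups, 11268 and 11715 untreated and 9607 and 12321 with LPS, but pre-mRNA of 561 and 810.2 untreated and 23.5 and 26.99 with LPS, a difference of -4.61 ± 0.37. For the exporter Abcc3, whose mRNA was 11131 and 10269 untreated and 7928 and 6008 with LPS (-0.63 ± 0.25, adjusted p = 0.0882), the difference was -4.77 ± 0.64. These 4 differences passed without each of the 8 libraries in turn. In Trem2, Gm2a and Abcc3 no mRNA change passed the test, while both LPS pre-mRNA libraries lay far below both untreated ones. Trf, transferrin, had the lowest difference, -7.38 ± 1.46, but it passed in only 1 of the 8 fits without a library, that without LPS library B of the pre-mRNA, and adjusted p in the others ran from 0.08 to 0.134.

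In the other direction, Bst2, or tetherin, an antiviral membrane protein, rose by 2.23 ± 0.33 in mRNA and 5.22 ± 0.27 in pre-mRNA (difference 2.98 ± 0.44). Mettl9, a histidine methyltransferase, had overlapping mRNA groups (1143 and 977 untreated, 793 and 1067 with LPS) and pre-mRNA of 8314 and 8134 untreated and 50197 and 52481 with LPS (difference 2.84 ± 0.35). Igsf6 overlaps Mettl9 by 10506 bases on the other strand and rose by 2.78 in mRNA and 2.83 in pre-mRNA, and whose reads the Mettl9 pre-mRNA reads were was not tested. The differences of Bst2 and Mettl9 also passed without each library in turn. For Fpr2, the formyl peptide receptor, the difference of 2.62 ± 0.44 did not pass without either LPS library of the mRNA or either untreated library of the pre-mRNA (adjusted p from 0.0597 to 0.0739). For Pde4d the difference of 3.02 ± 0.53 passed without LPS library A of the mRNA or LPS library B of the pre-mRNA, but in none of the other 6 such fits (adjusted p from 0.0544 to 0.0957).

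**Figure D4:**
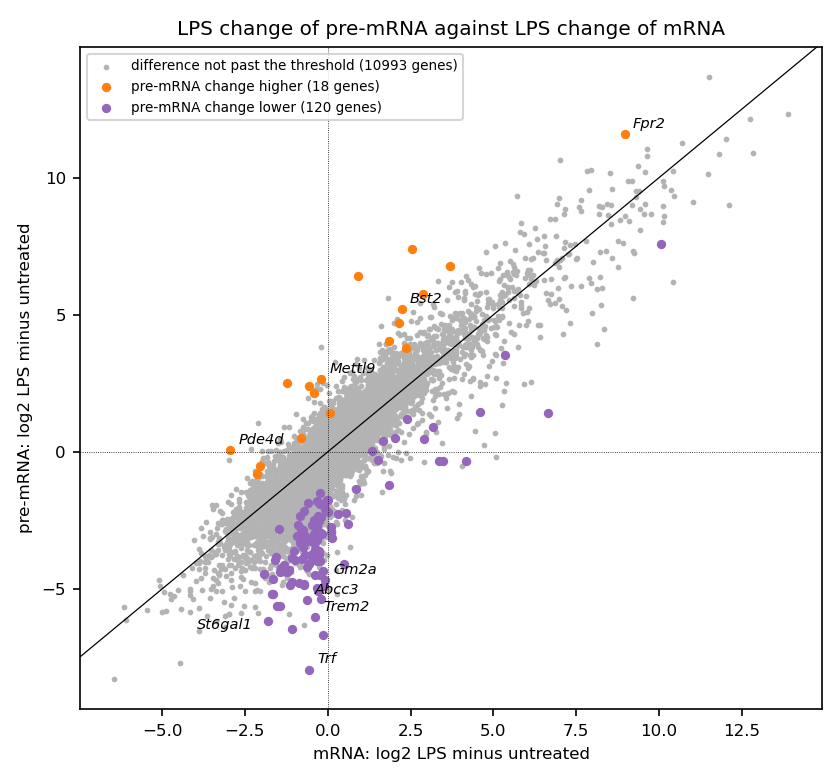
LPS change (log2 LPS minus untreated) of pre-mRNA against that of mRNA for 11131 genes, with the line of equal change and in colour the genes whose 2 changes differ. Most coloured points lie below the line (120 of 138), where the pre-mRNA change is the lower one.

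**Figure D5:**
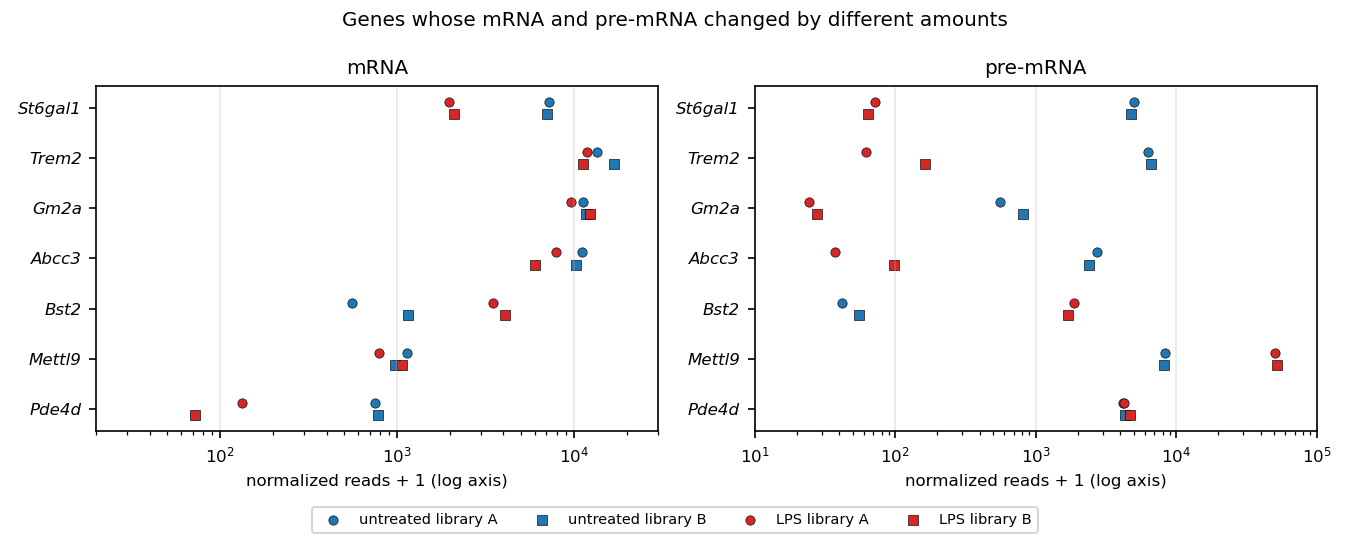
Normalized reads + 1 (log axis) in each of the 4 libraries for 7 genes whose mRNA and pre-mRNA changed by different amounts, 1 point a library. For Trem2, Gm2a and Abcc3 the mRNA points of the groups lie close together while the LPS pre-mRNA points lie far to the left of the untreated ones, and for Mettl9 they lie to the right.

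The largest pre-mRNA rises outside the usual lists were those of Fpr2 (1.60 and 1.46 to 7529 and 7953, a change of 11.58 ± 0.20), Vcam1 (1.60 and 0 to 6312 and 1270.0, a 3389-fold ratio with a counting interval of 1159 to 16436), and Marco, a scavenger receptor for bacteria (2.13 and 2.91 to 3179 and 9662, 10.63 ± 0.75). Saa3, an acute-phase protein, rose by 10.29 ± 0.38, Ak4, a mitochondrial adenylate kinase, by 10.25 ± 0.74, and Cd38, which consumes NAD, by 10.18 ± 0.94. Gfi1, a transcriptional repressor, had no untreated pre-mRNA read and 518 and 1678 normalized reads with LPS, at least 904-fold higher. All 7 of these genes rose by mRNA too, Fpr2 by 8.96 ± 0.37 and Saa3 by 7.94 ± 0.29, with no overlap of the groups. Among the falls, the organic anion transporter Slco2b1 went from 639 and 221 to 2.35 and 0 by pre-mRNA and changed by -4.47 ± 0.67 in mRNA. Deptor, an inhibitor of mTOR, went from 2099 and 1792 to 54.1 and 26.99 (-5.63 ± 0.37).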

How the data were processed

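The authors deposited 1 table with, per the file headers, 1 value for mRNA and 1 for pre-mRNA per gene and group, as normalized reads: reads divided by a library size factor and averaged over the 2 libraries of a group. Per the labels' protocols, RNA was depleted of ribosomal RNA and made into directional libraries. Per the submitters' processing notes Trim Galore and DESeq were used with build mm10. The aligner, annotation, strandedness of counting and rule for calling a read pre-mRNA were not stated in the labels.

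Each deposited value equalled 2 constants, 1 for each library, each taken a whole number of times and added, which gave each library's reads and size factor. This solved 100% of the values, to within a relative error of 5.1e-15, and none had a second solution. Library values were therefore worked out from the group means, and no column names a replicate. Values after log2(normalized reads + 1) were fitted with limma-trend (limma 3.58.1, R 4.3.3; python 3.11.15, numpy 2.4.6, pandas 2.3.3, matplotlib 3.10.9) over all 8 libraries of a measure, on genes with a mean of at least 1, with Benjamini-Hochberg adjusted p under 0.05 as the threshold. Genes with both measures were also fitted together to compare the changes. In simulated data over 11415 genes the mRNA comparison recovered 41% of 2-fold and 99% of 4-fold changes, and over 11152 genes the pre-mRNA comparison recovered 48% and 99%. Whether these rates hold for the measured libraries, where the LPS libraries stood apart from each other, was not tested.

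The genes named are, per measure, the 12 genes called with the highest and the 12 called with the lowest change, if their mean reached 200 (mRNA) or 100 (pre-mRNA) normalized reads, the groups did not overlap and the symbol was not of the usual lists; up to 4 members by mRNA and 3 by pre-mRNA of each of 35 lists, by smallest adjusted p; and the 8 highest and 8 lowest differences between the measures. A list of long noncoding RNAs had no member in the table, and 1 list and a few genes are not reported here. Families were ranked by the share called. The members, lists and rules were chosen with earlier results of these data known. Alternatives were pseudocount 5, a mean of at least 50, no filter, total-read and upper-quartile scaling, limma-voom on the worked-out reads, a fit on the compared groups alone, and leaving out each library. Counting intervals and lower bounds cover counting error only.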

Additional observations from a re-analysis of the deposited data

How the results depend on the processing

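The counts past the threshold were 4080 by mRNA, 4902 by pre-mRNA and 138 for the difference between the measures. Leaving out 1 library gave 1860 to 3095 by mRNA, fewest without LPS library B, 3150 to 4843 by pre-mRNA, fewest without untreated library B, and 44 to 239 for the difference, where a lone library was assumed to vary like the other groups. Scaling to total reads gave 88 differences, and it moved the split to 1203 risen and 4496 fallen by mRNA and to 1237 and 4682 by pre-mRNA. The cause was not tested. Pseudocount 5 gave 4103, 4990 and 145, a mean of at least 50 gave 3965, 4604 and 124, limma-voom gave 4024 by mRNA and 4989 by pre-mRNA, no filter 4080 and 4585, and the fit on the compared groups alone 3572 and 4133. Over 221 named genes, 427 called values were recomputed in 4683 alternatives: 4403 kept their direction and call, 278 kept the direction but missed the threshold, and 2 changed sign. Those were pre-mRNA changes under total reads, -0.0214 for Pip5k1a and -0.0213 for Elavl1. No paired analysis was possible because the table's columns carry no replicate number, so the replicate block was not run. Depth limits genes near 0 untreated reads, whose fold changes rest on a few reads.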
